A study of Mus musculus with 31 samples.

Results

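The 10 genes described here encode NF-kB transcription factor subunits and proteins that restrain or tune them. They were taken by symbol from the gene count table. Rela, Rel, Relb, Nfkb1 and Nfkb2 encode the 5 subunits, and Nfkbia and Nfkbie encode 2 cytoplasmic inhibitors. Nfkbiz and Bcl3 encode 2 nuclear inhibitor-like proteins, and Tnfaip3 encodes a deubiquitinase that restrains NF-kB signaling. All 10 of 24411 entries were found, and all 10 were among the 12337 genes that passed the filter on low counts and were tested. The rule used names alone and no measured value, but the genes were chosen with earlier results of these data known. Transcript levels were read from 9 RNA-seq libraries of sorted C57BL/6J mouse monocytes (CD11b+ Ly6G- Ly6Chi MHC-II-), with 3 libraries in each of 3 groups. Healthy blood came from mice without a tumor, and LLC blood came from mice carrying subcutaneous LLC (Lewis lung carcinoma, a mouse lung cancer line that grows in this strain). LLC tumor monocytes were sorted out of such tumors. No genotype, drug treatment, age or time after tumor injection is given in the labels used here for any group, nor whether animals were pooled or how tumors were dissociated. The labels do not say that the RNA replicates came from separate animals, so p-values measure the spread between these libraries, which may be technical.

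NF-kB factors are dimers of the subunits encoded by Rela, Rel, Relb, Nfkb1 and Nfkb2. In resting cells they are held in the cytoplasm by IkB proteins, and signals from Toll-like, interleukin-1 and TNF receptors activate a kinase complex that marks IkB for degradation and frees the dimer. The dimer then induces inflammatory genes together with its own inhibitors, among them Nfkbia and Tnfaip3, so that these inhibitor transcripts are widely read as products of the pathway as well as its brakes. In monocytes, which circulate in blood and enter inflamed tissue and tumors, the pathway is known for cytokine and chemokine induction.

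In the RefSeq annotation of GRCm38.p6, the subunit genes lie as follows: Rela (ENSMUSG00000024927) at chr19:5637442-5648134, Rel (ENSMUSG00000020275) at chr11:23736847-23770969, Relb (ENSMUSG00000002983) at chr7:19606217-19629438, Nfkb1 (ENSMUSG00000028163) at chr3:135584655-135691969 and Nfkb2 (ENSMUSG00000025225) at chr19:46300994-46312400. The inhibitor genes are Nfkbia (ENSMUSG00000021025) at chr12:55489409-55492647, Nfkbie (ENSMUSG00000023947) at chr17:45555700-45563169, Nfkbiz (ENSMUSG00000035356) at chr16:55811375-55838954, Bcl3 (ENSMUSG00000053175) at chr7:19808462-19822824 and Tnfaip3 (ENSMUSG00000019850) at chr10:19000910-19015410. Relb and Bcl3 are on the same chromosome, 179 kilobases apart.

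Promoter sequences are shown for the 6 genes that were called different in at least 1 comparison below and had a RefSeq entry. A RefSeq window (build GRCm38.p6) was matched for 7 of the 10 genes, with 10 annotated starts between them, and none was matched for Nfkb1, Relb and Nfkbiz. Each window is the 250 bases before an annotated start, printed 5′ to 3′ on the gene's strand, and capitals mark matches to the NF-kB consensus on either strand. Positions are counted back from the start.
Nfkbia, chr12:55492648-55492897, minus strand: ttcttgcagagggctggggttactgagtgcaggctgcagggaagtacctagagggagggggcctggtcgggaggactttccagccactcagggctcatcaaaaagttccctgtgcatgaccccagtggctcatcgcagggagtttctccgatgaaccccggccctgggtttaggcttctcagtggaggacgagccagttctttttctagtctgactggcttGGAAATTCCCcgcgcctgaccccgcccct
Tnfaip3, chr10:19015411-19015660, minus strand: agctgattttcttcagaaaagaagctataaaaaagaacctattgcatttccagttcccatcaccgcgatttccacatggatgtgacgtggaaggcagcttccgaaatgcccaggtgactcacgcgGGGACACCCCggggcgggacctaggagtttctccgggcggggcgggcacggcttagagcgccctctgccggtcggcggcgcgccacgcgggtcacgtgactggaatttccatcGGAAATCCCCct
Nfkbie, chr17:45555450-45555699, plus strand: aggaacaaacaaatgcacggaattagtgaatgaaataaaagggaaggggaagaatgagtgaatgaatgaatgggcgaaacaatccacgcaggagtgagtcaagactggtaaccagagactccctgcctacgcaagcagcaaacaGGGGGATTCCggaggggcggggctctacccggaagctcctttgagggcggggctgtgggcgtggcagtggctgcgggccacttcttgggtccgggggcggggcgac
Rel, chr11:23770970-23771219, minus strand: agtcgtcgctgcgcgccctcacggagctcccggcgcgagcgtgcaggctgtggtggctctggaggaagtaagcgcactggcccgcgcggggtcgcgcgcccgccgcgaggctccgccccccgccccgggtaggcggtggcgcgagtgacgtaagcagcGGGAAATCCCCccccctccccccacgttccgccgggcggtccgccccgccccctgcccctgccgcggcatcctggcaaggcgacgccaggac
Rela, chr19:5637291-5637540, plus strand: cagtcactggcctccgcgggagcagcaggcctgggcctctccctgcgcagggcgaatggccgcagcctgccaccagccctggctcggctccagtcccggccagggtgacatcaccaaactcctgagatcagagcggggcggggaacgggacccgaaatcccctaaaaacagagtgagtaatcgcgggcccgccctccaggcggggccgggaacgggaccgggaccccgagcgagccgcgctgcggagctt
Bcl3, chr7:19822756-19823005, minus strand: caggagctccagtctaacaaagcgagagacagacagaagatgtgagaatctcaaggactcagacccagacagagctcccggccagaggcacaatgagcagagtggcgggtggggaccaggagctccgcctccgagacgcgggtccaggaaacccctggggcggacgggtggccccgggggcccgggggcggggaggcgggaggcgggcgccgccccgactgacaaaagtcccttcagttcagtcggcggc

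The Nfkbia window held 1 match, 29 to 20 bases before the start. The Tnfaip3 window held 2, at 125 to 116 and at 12 to 3 bases, and the window of its other annotated start held none. The Nfkbie match lay 106 to 97 bases before the start. In Rel, 2 matches overlapped by all but 1 base, at 92 to 83 and at 91 to 82 bases. Nfkb2, not printed, held matches before each of its 3 annotated starts, and the windows of Rela and Bcl3 held none. In all, 7 of the 10 windows, from 5 of the 7 genes, held a match, against 3.90% of all 32851 windows of this length. The looser pattern GGGNNNNNCC, searched on both strands, was in windows of all 7 genes and in 45.8% of all windows. Every consensus match is also a match to it, so the 5 genes with a consensus match were bound to hold it. A match is a description of the letters and was not tested as a binding site.

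Total counts ranged from 10457492 to 20706412 per library. Levels are CPM, counts scaled to the library total, and fold changes come from edgeR's quasi-likelihood fit over all genes with TMM scaling, which corrects for differences in RNA composition. Calls were made at an adjusted p (Benjamini-Hochberg over all genes tested) under 0.05. LLC tumor 1 had a TMM factor of 0.798 against 0.968 to 1.07 in the other libraries, so its scaled levels lie above its CPM. The summed level of 8 monocyte markers ranged over 32524 to 36424 CPM (healthy blood), 23280 to 26597 (LLC blood) and 14742 to 19213 (LLC tumor), with every marker above 0 in all 9 libraries. Summed levels of 6 fibroblast markers ranged over 3.13 to 15.5 CPM (healthy blood) and 936 to 3921 CPM (LLC tumor), while in LLC blood they were 409 CPM in replicate 1 against 1.38 and 1.93 CPM in the others. Batches are not named in the labels, and one that ran parallel to the groups cannot be told apart from a group difference. Counts of all 10 genes were whole numbers in every library, with no fractional share from another gene. Lengths of the transcripts were not used here, and levels are compared between groups and not between genes.

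In tumor monocytes the inhibitors and the subunits moved differently. Compared with LLC blood, Tnfaip3 was 17.5-fold (a log2 fold change of 4.13, and 3.29 without LLC tumor 1), Nfkbia 10.7-fold, Nfkbiz 6.13-fold and Nfkbie 2.46-fold higher. Among the subunits Rela alone was called higher, by 1.21-fold (a call not made when libraries were scaled by their totals alone). Relb had a similar fold of 1.20 that was not called. Nfkb1 fell. Bcl3 also fell. In the blood of tumor-bearing mice, Rel was 3.26-fold higher than in healthy blood, and Nfkbie was 1.67-fold lower. Rela was 1.20-fold lower there, a call that was lost in 10 of 20 alternatives.

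**Figure D1:**
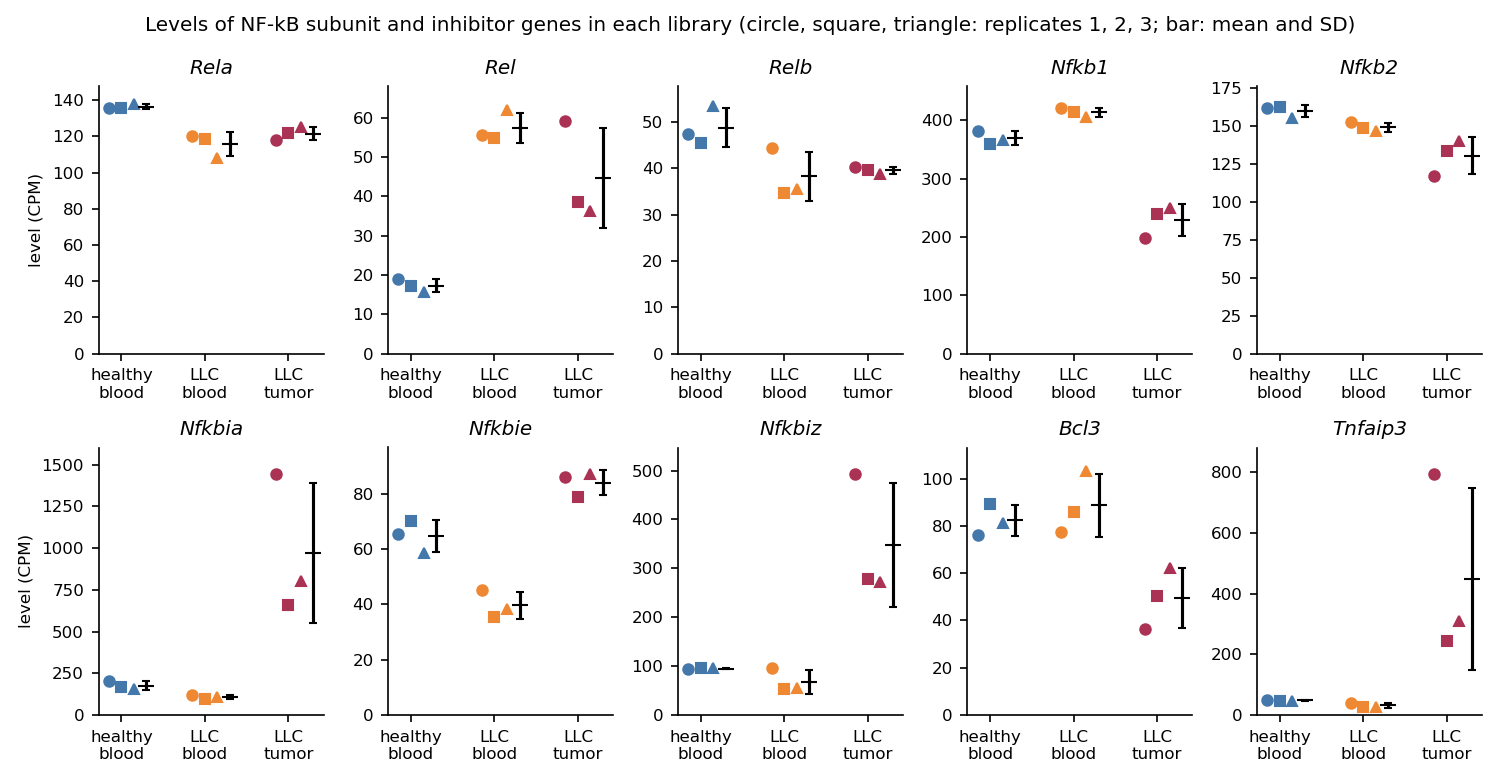
Level of each of the 10 genes in CPM (vertical axes start at 0 and differ between panels) in the 3 libraries of each group; symbols are libraries and bars the mean and SD. Tnfaip3, Nfkbia and Nfkbiz were highest in all 3 tumor libraries, with LLC tumor 1 above the other tumor libraries, and Rel was low in healthy blood alone.

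Setting LLC blood against healthy blood bears on how circulating monocytes differ when a mouse carries a tumor. Of the 10 genes, 1 was called higher (Rel) and 2 lower (Nfkbie and Rela), where 14.0% of all tested genes were called higher and 9.61% lower. The CPM ranges of the groups did not overlap for 8 of the 10 genes, against 51.4% of all tested genes. The median log2 fold change was -0.32 over the 10 genes and -0.01 over all genes tested.

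Rel encodes c-Rel, a subunit with a transactivation domain that is prominent in blood cells. Its level was 19.1, 17.2 and 15.6 CPM in healthy blood 1 to 3, and 55.6, 54.9 and 62.0 CPM in LLC blood 1 to 3. All LLC blood libraries lay above all healthy ones, and the spread within each group was small beside the gap. The log2 fold change was 1.71 ± 0.24 (SE, n = 3 against 3, edgeR adjusted p 0.00155), with a 95% interval of 1.16 to 2.26. It ranked at percentile 97.6 of the log2 fold changes of all tested genes.

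Rela encodes the main transactivating subunit of the canonical dimer. Its level was 135.6, 135.6 and 137.9 CPM in healthy blood and 120.3, 118.4 and 108.0 CPM in LLC blood. The groups did not overlap, and the difference was small. Its log2 fold change was -0.27 ± 0.08 (SE, edgeR adjusted p 0.0409). This call was lost when any 1 of the 6 blood libraries, or LLC tumor 3, was left out, with an adjusted p of up to 0.169.

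Nfkbie encodes IkB-epsilon, a cytoplasmic inhibitor that is itself induced by the pathway. Its level was 65.6, 70.0 and 58.5 CPM in healthy blood and 45.0, 35.6 and 38.2 CPM in LLC blood. Every LLC blood library lay below every healthy one. The log2 fold change was -0.74 ± 0.13 (SE, edgeR adjusted p 0.00465), and leaving out single libraries kept it between -0.82 and -0.66 with the call made each time.

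Nfkbia, Tnfaip3, Nfkbiz and Relb had lower means in LLC blood and did not pass the test. Nfkbia, which encodes IkB-alpha, the rapidly resynthesized inhibitor, was at 204.9, 167.6 and 154.3 CPM in healthy blood and at 121.7, 94.3 and 107.6 CPM in LLC blood (log2 fold change -0.73 ± 0.33 SE, edgeR adjusted p 0.141). Tnfaip3, a ubiquitin-editing enzyme that shuts off signaling upstream of the kinase complex, was at 50.4, 47.7 and 47.1 CPM and at 40.5, 26.9 and 26.6 CPM (-0.66 ± 0.47, adjusted p 0.339). Neither gene's groups overlapped. Nfkbiz, a nuclear protein needed for a subset of secondary response genes, was at 93.2, 95.8 and 96.1 CPM in healthy blood and 95.3, 52.8 and 55.1 CPM in LLC blood (-0.52 ± 0.33, adjusted p 0.283). Here LLC blood 1 lay within the healthy range and the other LLC blood libraries below it. Relb, the transactivating subunit of the alternative pathway, was at 47.5, 45.5 and 53.5 CPM and at 44.5, 34.8 and 35.6 CPM (-0.38 ± 0.13, adjusted p 0.0665).

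These calls depended on 1 tumor library that is not part of the comparison but shares the estimate of spread. Without LLC tumor 1, 8 of the 10 genes were called, 1 higher and 7 lower, and calls over all tested genes also rose, from 23.6% to 39.4% (17.0% higher and 22.4% lower). The additional genes were Nfkbia (log2 fold change -0.78, edgeR adjusted p 0.00287), Tnfaip3 (-0.72, adjusted p 0.00995), Relb (-0.43, adjusted p 0.0137), Nfkb2 (-0.18, adjusted p 0.0263) and Nfkbiz (-0.58, adjusted p 0.0473). Without any 1 of the healthy libraries, LLC blood 2, LLC blood 3 or LLC tumor 3, the count of genes called lower was 1 in place of 2; without LLC blood 1 it was 2, with Relb (-0.49, adjusted p 0.0297) called and Rela not. Nfkb1, Nfkb2 and Bcl3 had log2 fold changes of 0.14, -0.13 and 0.09, with adjusted p of 0.186, 0.178 and 0.710. Intervals of 95% were -0.02 to 0.30 for Nfkb1, -0.27 to 0.02 for Nfkb2 and -0.24 to 0.41 for Bcl3.

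Markers of other cells moved with the blood groups. Summed levels of 7 NK cell markers were higher in healthy blood (170 to 412 CPM) than in LLC blood (24.5 to 44.0 CPM), and so were those of 7 T cell markers (38.3 to 154 against 4.66 to 9.59 CPM). Those of 8 neutrophil markers were lower in healthy blood (170 to 207 CPM) than in LLC blood (237 to 390 CPM). The 7 dendritic cell markers summed to 80.2 to 85.8 CPM (healthy blood) and 24.4 to 39.4 CPM (LLC blood), with 5 of 6 tested genes lower. Of 20 stress genes of early response and heat shock type, 5 were lower and 1 higher in LLC blood, with a median log2 fold change of -0.84. The part of these lists in the Rel, Nfkbie and Rela differences was not tested. In bulk samples, fewer cells of a type and less RNA per cell cannot be told apart.

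Setting LLC tumor against LLC blood bears on how monocytes inside the tumor differ from those in circulation in tumor-bearing mice. It shares the LLC blood libraries with the previous comparison, in which they are on the other side of the contrast. Of the 10 genes, 5 were called higher and 2 lower, where 29.6% of all tested genes were called higher and 31.7% lower. CPM ranges did not overlap for 7 of the 10, against 68.3% of all tested genes. The median log2 fold change was 0.27 over the 10 genes and -0.03 over all genes tested.

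**Figure D2:**
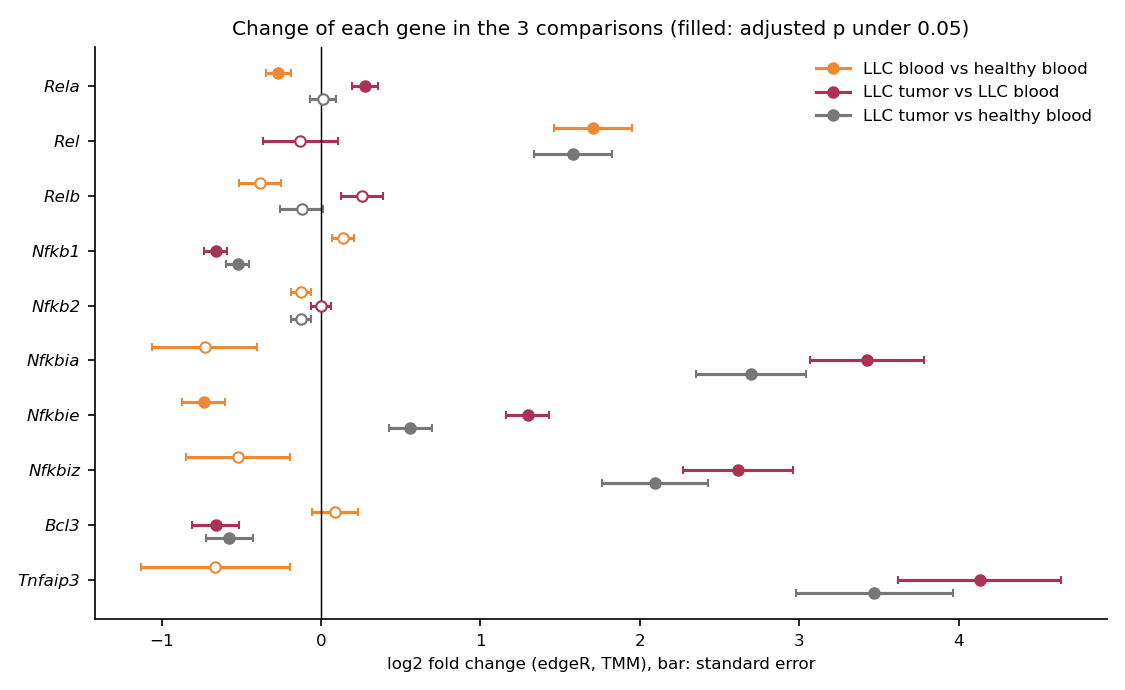
Log2 fold change of each gene (horizontal axis, edgeR with TMM; bars are standard errors) in LLC blood against healthy blood, LLC tumor against LLC blood and LLC tumor against healthy blood; filled symbols passed an adjusted p of 0.05. The inhibitors Tnfaip3, Nfkbia, Nfkbiz and Nfkbie lie to the right in both tumor comparisons, Nfkb1 and Bcl3 to the left, and Rel lies to the right in both comparisons with healthy blood.

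Tnfaip3 was at 40.5, 26.9 and 26.6 CPM in LLC blood 1 to 3 and at 792.5, 242.3 and 310.9 CPM in LLC tumor 1 to 3. All tumor libraries lay far above all blood libraries, and LLC tumor 1 was 3.27 times the lowest tumor library. The log2 fold change was 4.13 ± 0.51 (SE, n = 3 against 3, edgeR adjusted p 9.59e-05). Without LLC tumor 1 it was 3.29 (adjusted p 4.94e-07). Its value ranked at percentile 94.2 of all tested genes.

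Nfkbia was at 121.7, 94.3 and 107.6 CPM in LLC blood and at 1444.6, 657.0 and 803.2 CPM in LLC tumor. The groups did not overlap, and LLC tumor 1 was again the highest. The log2 fold change was 3.42 ± 0.36 (SE, edgeR adjusted p 3.28e-05), with a 95% interval of 2.62 to 4.23. Leaving out single libraries gave values from 2.89 to 3.69.

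Nfkbie rose more evenly, from 45.0, 35.6 and 38.2 CPM to 86.1, 78.9 and 87.2 CPM. The tumor libraries were close to each other and all above the blood libraries. Its log2 fold change was 1.30 ± 0.14 (SE, edgeR adjusted p 3.39e-05), with a 95% interval of 0.99 to 1.60.

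The 2 nuclear inhibitor-like genes moved in opposite directions. Nfkbiz was at 95.3, 52.8 and 55.1 CPM in LLC blood and at 493.6, 278.1 and 272.1 CPM in LLC tumor (log2 fold change 2.62 ± 0.34 SE, edgeR adjusted p 0.00014). Bcl3, which binds homodimers of the Nfkb1 and Nfkb2 products and can activate or repress their targets, was at 77.3, 85.8 and 103.4 CPM and at 36.5, 50.2 and 62.0 CPM (-0.66 ± 0.15, adjusted p 0.00347). Neither gene's groups overlapped, and LLC tumor 1 was the highest tumor library for Nfkbiz and the lowest for Bcl3. With single libraries left out, the Nfkbiz log2 fold change ranged from 2.16 to 2.92.

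Among the subunits, Nfkb1, which encodes a precursor processed to a DNA-binding subunit without a transactivation domain, had the largest change. It was at 421.6, 415.0 and 406.3 CPM in LLC blood and at 198.3, 238.8 and 249.7 CPM in LLC tumor. Every tumor library lay below every blood library. Its log2 fold change was -0.66 ± 0.07 (SE, edgeR adjusted p 3.80e-05), with a 95% interval of -0.82 to -0.50.

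Rela was at 117.7, 122.0 and 124.9 CPM in LLC tumor, within and just above its LLC blood range of 108.0 to 120.3 CPM. After TMM scaling the groups no longer overlapped, and the log2 fold change was 0.28 ± 0.08 (SE, edgeR adjusted p 0.0142). Scaled by library totals alone it was 0.07 (adjusted p 0.321), and the call was also lost without LLC blood 2 or LLC blood 3, with an adjusted p of up to 0.0728, with every gene with a count tested (adjusted p 0.0550) and at a threshold of 0.01. Library totals alone moved the median of all tested genes from -0.03 to -0.23, and the Rela change relative to that median was similar under both.

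Rel, Relb and Nfkb2 did not pass the test. Rel was at 59.2, 38.6 and 36.3 CPM in LLC tumor, so that LLC tumor 1 lay within the LLC blood range and the other tumor libraries below it. Its log2 fold change was -0.13 ± 0.23 (SE, edgeR adjusted p 0.652, 95% interval -0.66 to 0.40), and without LLC tumor 1 it was called lower, at -0.49 (adjusted p 0.00200). Relb was at 40.3, 39.7 and 38.8 CPM (0.26 ± 0.13, adjusted p 0.120), and without LLC blood 1 it was called higher, at 0.36 (adjusted p 0.0409). Nfkb2, which encodes the subunit precursor of the alternative pathway, was at 152.6, 148.8 and 146.6 CPM in LLC blood and at 116.9, 133.9 and 140.4 CPM in LLC tumor. Its log2 fold change was 0.00 ± 0.06 (adjusted p 0.983, 95% interval -0.14 to 0.15), and with library totals alone it was -0.19 (adjusted p 0.0430).

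Against healthy blood, LLC tumor had 5 of the 10 genes called higher and 2 lower, where 33.5% of all tested genes were higher and 33.0% lower. CPM ranges did not overlap for all 10, against 70.6% of all tested genes, and for 8 of the 10 after TMM scaling. The genes called higher were Tnfaip3 (log2 fold change 3.47 ± 0.49 SE, edgeR adjusted p 0.000202), Nfkbia (2.69 ± 0.34, adjusted p 0.000106), Nfkbiz (2.09 ± 0.33, adjusted p 0.000432), Rel (1.58 ± 0.24, adjusted p 0.000356) and Nfkbie (0.56 ± 0.13, adjusted p 0.00448). Without LLC tumor 1, Tnfaip3 was at 2.57 and Nfkbia at 2.11. Nfkb1 (-0.52 ± 0.07, adjusted p 0.000147) and Bcl3 (-0.58 ± 0.15, adjusted p 0.00677) were lower. Rela, Relb and Nfkb2 were at 0.01, -0.12 and -0.13 and were not called, with 95% intervals of -0.17 to 0.19, -0.42 to 0.18 and -0.27 to 0.02.

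Ordered by group, Tnfaip3, Nfkbia and Nfkbiz ran from LLC tumor through healthy blood to LLC blood, where the step between the blood groups did not pass the test. Nfkbie had the same order with each step called. Nfkb1 and Bcl3 were lowest in LLC tumor, and the step between their blood groups did not pass the test, although the Nfkb1 ranges did not overlap. Rel was lowest in healthy blood, and LLC blood and LLC tumor were not told apart.

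Ratios of 2 genes within a library do not depend on how libraries are scaled to each other. The log2 ratio of Nfkbia to Rela counts was 0.60, 0.31 and 0.16 in healthy blood, 0.02, -0.33 and -0.01 for the LLC blood libraries and 3.62, 2.43 and 2.68 for those of LLC tumor. The inhibitor thus stood 8.09-fold higher against its subunit in LLC tumor than in LLC blood, and 5.88-fold higher than in healthy blood. In LLC blood the ratio was 1.38-fold lower than in healthy blood. The Tnfaip3 to Rela ratio was 12.1-fold higher in LLC tumor than in LLC blood.

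The log2 ratio of Nfkb2 to Nfkb1 counts was -1.24, -1.14 and -1.24 in healthy blood, -1.47, -1.48 and -1.47 for the LLC blood libraries, and -0.76, -0.83 and -0.83 for those of LLC tumor. The 3 groups were separate, with LLC blood lowest and nearly constant, and the ratio was 1.58-fold higher in LLC tumor than in LLC blood. Rel to Rela was 3.93-fold higher in LLC blood than in healthy blood, and LLC tumor overlapped LLC blood. The Relb to Rela ratio had means of -1.49 (healthy blood), -1.60 (LLC blood) and -1.62 (LLC tumor), with overlapping libraries in each comparison. Of 15 ratio comparisons, 11 had groups that did not overlap, each with p = 0.1 in a two-sided exact permutation test, the smallest p that 3 against 3 allows, and 0.136 after adjustment over the 15. No ratio could therefore pass 0.05.

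**Figure D3:**
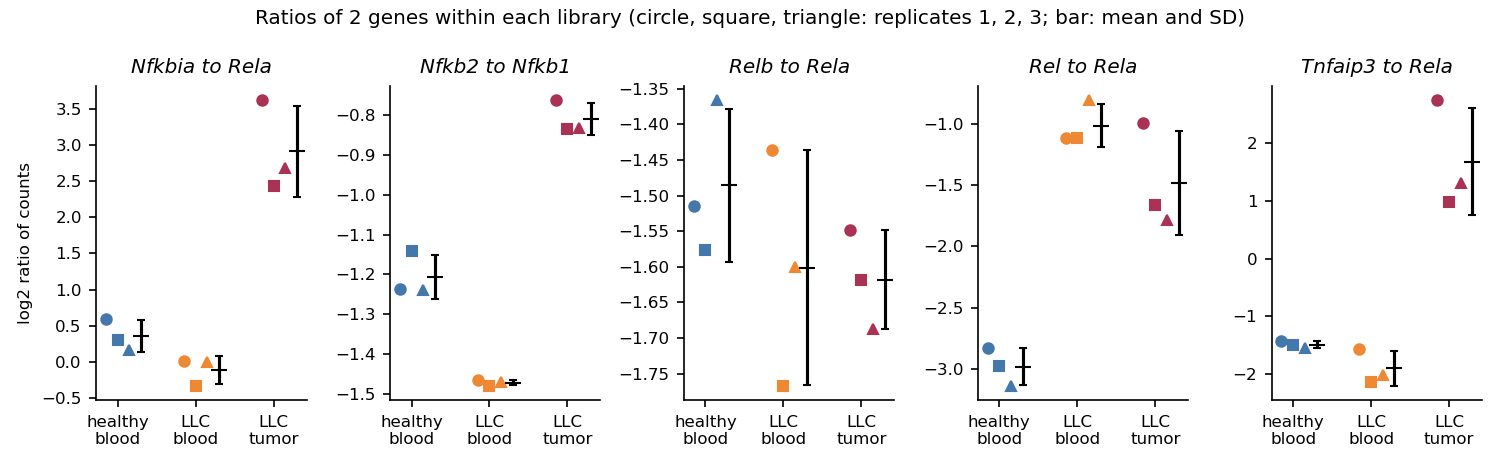
Log2 ratio of the counts of 2 genes within each library (vertical axes differ between panels and do not start at 0) for the 3 groups; symbols are libraries and bars the mean and SD. Nfkbia to Rela and Tnfaip3 to Rela stand apart in LLC tumor, Nfkb2 to Nfkb1 separates all 3 groups, and Relb to Rela overlaps throughout.

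The stress genes, which cell handling is known to induce, moved with the inhibitors. Of the 20 genes, 19 were called higher in LLC tumor than in LLC blood, with a median log2 fold change of 2.56. Their summed level was 8955, 6438 and 6078 CPM in healthy blood 1 to 3, 6202, 2995 and 2780 CPM for LLC blood, and 20062, 16474 and 15661 CPM for LLC tumor. By this sum replicate 1 was the highest in each group, and it was also the highest for Nfkbia and Tnfaip3 in each group and for Nfkbiz in LLC blood and LLC tumor. In LLC tumor the single stress genes differed. LLC tumor 1 was the highest tumor library for Atf3, Dusp1, Hspa1a, Hspa1b, Hsp90aa1 and Klf6, among others. It was the lowest for Fos (1816 CPM against 2691 and 2073 CPM), Jun, Egr1, Ier2, Hspe1 and Socs3, and not the highest for Fosb and Junb. The part of the stress genes in the changes of Nfkbia, Tnfaip3 and Nfkbiz was not tested. Fibroblast markers moved with the tumor group, and LLC tumor 1, the highest tumor library for these 3 inhibitors, had the lowest fibroblast sum of the tumor libraries (936 CPM against 3467 and 3921 CPM). Summed levels of 5 epithelial markers were 0.06 to 0.71 CPM over the blood libraries and 10.3 to 43.0 CPM in LLC tumor, where Cldn4 was at 0 in all 3 libraries. Markers of several blood cells were lower in LLC tumor than in LLC blood. Summed levels of 7 markers of Ly6C-low monocytes went from 3270 to 4023 CPM in LLC blood to 1177 to 1424 CPM in LLC tumor, with 5 of 7 lower and 2 higher. Erythroid markers went from 168 to 919 CPM to 1.08 to 3.46 CPM (5 of 5 tested lower), and NK cell markers from 24.5 to 44.0 CPM to 1.30 to 3.81 CPM (7 of 7 lower). Of 8 neutrophil markers 5 were lower, with sums of 237 to 390 CPM in LLC blood and 139 to 193 CPM in LLC tumor. The part of fibroblast, epithelial and these other cells' RNA was not tested.

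Other genes of the pathway were described by 6 lists, with values for the genes named. Genes outside the naming rule were named after their values were seen, where a count was small. In LLC blood against healthy blood most genes of each list were not called, where 14.0% of all tested genes were higher and 9.61% lower. In LLC tumor against LLC blood, 29.6% of all tested genes were higher and 31.7% lower, and each list's counts are given beside these shares as a description.

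Among 19 receptors, 4 were called higher and 2 lower in LLC blood relative to healthy blood. The higher ones were Tlr4, the lipopolysaccharide receptor, at 28.8 ± 4.20 CPM (SD, n = 3) without and 53.9 ± 6.73 CPM with a tumor, a log2 difference of 0.88 ± 0.13 SE (edgeR adjusted p 0.00208), Tlr6 (0.50), Tlr1 (0.48) and Il1rap (0.46). Those lower were Il18r1 (-2.36) and Ly96 (-0.49). Tlr1 and Tlr6 are near-identical in part and had counts shared with other genes, so their values are uncertain. Between LLC tumor and LLC blood, 7 receptors were higher and 9 lower, with a median of -0.21. Cd14, the lipopolysaccharide co-receptor, went from 51.4, 50.0 and 46.9 CPM in LLC blood to 2009.8, 1378.0 and 1444.1 CPM in LLC tumor (5.26 ± 0.25, edgeR adjusted p 3.92e-07). Il1r1, the interleukin-1 receptor, went from 0.67, 0.69 and 0.72 CPM to 18.2, 77.7 and 78.4 CPM, lowest in the tumor library with the lowest fibroblast sum. With at most 15 counts in any blood library, it passed the filter on low counts through LLC tumor. Tnfrsf11a, the receptor for RANK ligand, rose by 1.98 ± 0.17 on the log2 scale (adjusted p 1.01e-05).

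Among 11 kinases and their partners, 3 were called in LLC blood, each higher: Ikbke (log2 fold change 0.55 ± 0.10 SE, edgeR adjusted p 0.00440), Ikbkg (0.35) and Map3k7 (0.28). From LLC blood to LLC tumor, 3 were higher, namely Tab3 (0.86), Ikbke (0.38) and Tbk1 (0.22), and 4 lower, namely Ikbkb (-1.04), Map3k14 (-0.70), Tab2 (-0.56) and Map3k7 (-0.35). Ikbkb, the catalytic subunit of the canonical IkB kinase, fell from 492.5, 499.6 and 495.7 CPM to 179.5, 221.3 and 231.7 CPM (adjusted p 3.80e-06). Map3k14, the kinase that starts the alternative pathway, fell from a mean of 131.8 ± 22.8 to 70.6 ± 9.75 CPM (SD, n = 3).

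Of 21 adaptors and ubiquitin ligases, 4 were higher in LLC blood (Irak4 0.51, Myd88 0.40, Tirap 0.38 and Card9 0.27 on the log2 scale) and 2 lower (Traf5 -0.30 and Sharpin -0.28). Against LLC blood, LLC tumor had 6 higher and 11 lower, with a median of -0.30. Myd88, the adaptor of most Toll-like receptors, fell from 323.7, 378.2 and 353.2 CPM to 138.4, 123.8 and 147.2 CPM (log2 fold change -1.16 ± 0.12 SE, edgeR adjusted p 3.78e-05). Irak4, the kinase it recruits, fell by 1.43 ± 0.08 on the log2 scale (adjusted p 6.34e-07). Irak2, a related kinase of the same complex, rose from 56.8, 49.5 and 52.1 CPM to 200.4, 134.6 and 150.3 CPM (1.85 ± 0.20, adjusted p 4.62e-05). Members of 1 signaling complex therefore had opposite signs.

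Of 18 inhibitors outside the 10 genes, 1 was higher in LLC blood (Itch 0.44) and 3 lower (Tnip3 -0.88, Pdlim2 -0.77 and Nfkbid -0.70 on the log2 scale). In LLC tumor against LLC blood, 7 were higher and 5 lower, with a median of 0.09. Zc3h12a, an RNase that degrades cytokine transcripts, rose from 45.3, 44.5 and 45.3 CPM to 128.1, 89.4 and 106.8 CPM (log2 fold change 1.49 ± 0.18 SE, edgeR adjusted p 9.19e-05). Rnf11, a partner of the Tnfaip3 product, rose by 1.46 ± 0.13, and Pdlim2, a ligase for the Rela product, rose by 1.01 ± 0.17 with LLC tumor 1 near the LLC blood range. The lower genes were Cyld (-0.71), Itch (-0.61), Traf3 (-0.44), Otulin (-0.35) and Tnip2 (-0.21). The inhibitors of this list thus did not share 1 direction.

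Of 12 ligands, 8 were tested, and Lta, Tnfsf11, Tnfsf15 and Cd40lg did not pass the filter on low counts. In LLC blood 1 was called, Tnfsf13b, lower by -0.82 on the log2 scale (edgeR adjusted p 0.0238). In LLC tumor against LLC blood, 5 were higher, namely Il33, Il1a, Il1b, Tnf (3.37) and Il18 (0.93), and 2 lower, Tnfsf13b (-2.69) and Ltb (-2.14). Il1b, which encodes the cytokine interleukin-1 beta, went from 63.0, 63.2 and 85.3 CPM to 2161, 1186 and 1467 CPM (4.75 ± 0.32 SE, adjusted p 2.35e-06). Il1a was at 94.4, 29.8 and 26.3 CPM in LLC tumor and at most at 0.25 CPM in LLC blood, with counts partly shared with other genes. Il33 was at 18.8, 80.1 and 70.2 CPM in LLC tumor and at 3, 0 and 1 counts in LLC blood, so no fold is given. Its lowest tumor library was again LLC tumor 1. Il1a and Il33 had at most 6.21 counts in any blood library, so they passed the filter through LLC tumor alone. The count of 5 higher ligands includes both, and their calls followed largely from the filter.

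Of 26 target genes, 24 were tested, without Il12b and Ccl20. In LLC blood 2 were higher, Lcn2 (log2 fold change 3.46 ± 0.47 SE, edgeR adjusted p 0.00123) and Ier3 (0.79), and 6 lower. The lowest was Ccl5, a chemokine that NK and T cells also make, from 70.8, 87.2 and 131.0 CPM to 4.88, 8.78 and 10.6 CPM (-3.57 ± 0.55, adjusted p 0.00227). The list median in blood was -0.65, or -0.63 with genes near 0 counts held at the floor of 3 counts per library. In LLC tumor against LLC blood, 18 were higher and 3 lower (Lcn2 -1.37, Irf1 -0.87 and Icam1 -0.53), with a median of 5.12, or 5.03 with the floor. Cxcl1, a neutrophil chemokine, was at 94.0, 75.7 and 77.6 CPM in LLC tumor and at 3, 0 and 1 counts in LLC blood. Cxcl2, a related chemokine with counts split between genes in each of the 9 libraries, was at 2275, 1345 and 1565 CPM against 4.75, 0.30 and 0.97 CPM (adjusted p 4.84e-06). Nos2, which makes nitric oxide, was at 152, 228 and 216 CPM against 4, 1 and 1 counts. Nos2 and Cxcl1 had at most 10 counts in any blood library, so they passed the filter on low counts through LLC tumor alone. Their calls as higher thus followed largely from the filter. The count of 18 and the median of 5.12 include such genes and leave out Il12b and Ccl20.

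**Figure D4:**
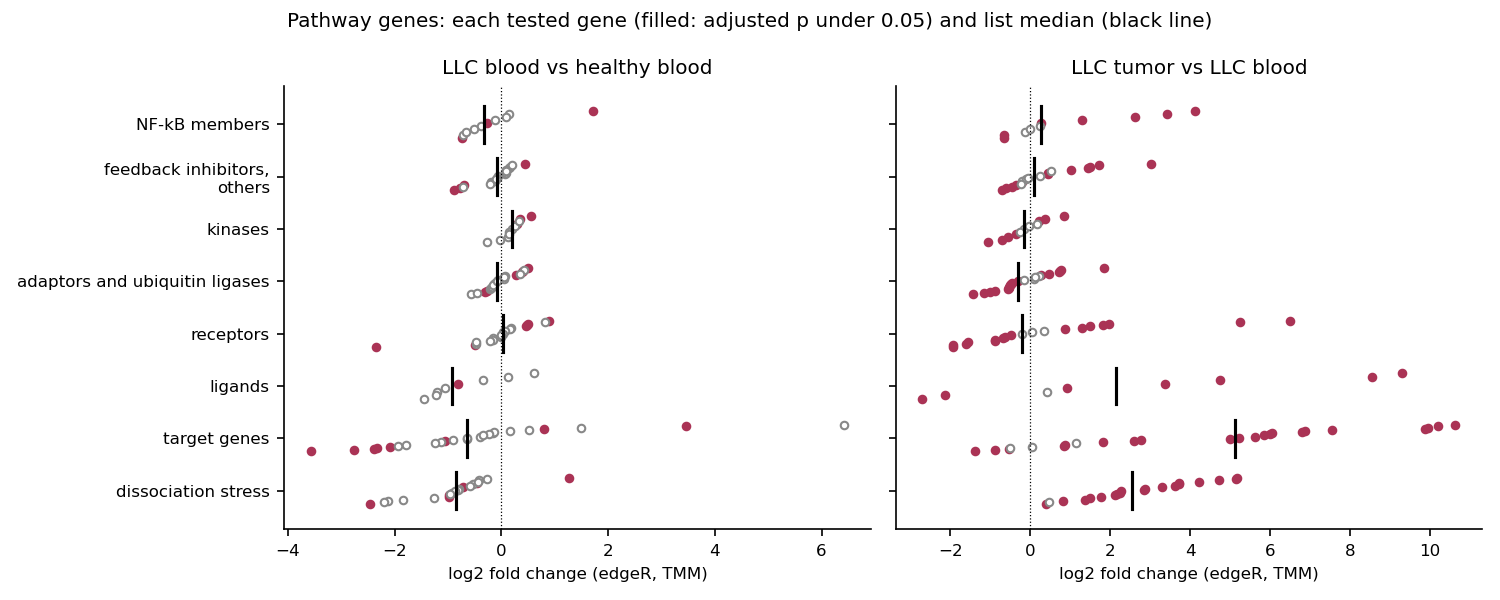
Log2 fold change of each tested gene of the 10 NF-kB genes, of 6 pathway lists and of the stress list (rows) in LLC blood against healthy blood and LLC tumor against LLC blood; filled points passed an adjusted p of 0.05 and black lines are list medians. In the tumor comparison the medians were 2.15 for ligands, 5.12 for targets and 2.56 for stress genes, with ligands and targets on both sides of 0, and -0.30 for adaptors. Ligands and targets include genes that passed the filter on low counts through LLC tumor alone.

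Genes with the pattern most like each of the 10 over the 9 libraries were sought among 6903 genes of at least 20 CPM on average, by the root mean square difference of gene-centred log2 CPM. The libraries share their depth and group structure, so this likeness is a description. Nfkbia and Tnfaip3 had the same nearest gene, Atf3, a gene of the stress list, at 0.23 and 0.24. Next came Hmox1 for Nfkbia (0.26) and Il1rn for Tnfaip3 (0.29). For Nfkbiz they were Btg1 (0.17) and Ninj1 (0.20), and for Nfkbie Blvrb and Eif1 (both 0.14). Rel was nearest to Brwd3 (0.28) and Xrn1 (0.29). Brwd3 was at 9.50 ± 0.73 CPM in healthy blood, 35.5 ± 6.36 CPM in LLC blood and 33.0 ± 0.96 CPM in LLC tumor (SD, n = 3).

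The other subunits and Bcl3 varied less than these 5 genes and were near many genes, although Nfkb1 and Bcl3 were called lower in LLC tumor. The nearest were Rpl8 and Ppp1r18 for Rela, Tm2d1 and Gnb2l1 for Relb, Ehbp1l1 and Rexo1 for Nfkb1, Cyc1 and Rbm17 for Nfkb2, and Srsf1 and Prmt10 for Bcl3, at 0.03 to 0.11. Among the 10 genes themselves, the closest pair was Rela and Relb (0.12), followed by Rela and Nfkb2 (0.13) and by Nfkb1 and Bcl3 (0.17). Nfkbia and Tnfaip3 were 0.34 apart and Nfkbia and Nfkbiz 0.38, and Bcl3 and Tnfaip3 were the farthest pair, at 2.08.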

How the data were processed

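The analysis used 9 RNA-seq libraries of the series' 31 samples; the other 22, of chromatin assays, were not analysed here. TRIzol-extracted RNA was prepared with a TruSeq kit and run on a HiScanSQ, per the labels. The authors deposited a table of estimated counts per gene symbol, not normalized, in which 8.56% to 9.73% of values per library were not whole, and a CPM table of 10693 genes, in which 100% of values per library were whole multiples of 1 read (tolerance 0.05 reads). Those reads equalled the rounded counts for 100% of values per library, so the CPM table held the same counts for fewer genes. How either table was made is not stated for it. The submitters' processing notes name build mm10 and, among other tools, STAR 2.6.1d, Salmon 1.9.0 and edgeR, without saying which made these tables. Blood columns are headed BM, read as blood monocyte from the sample titles; the tables do not decide between this and bone marrow. The table held 27 symbols converted to dates and 2 repeated symbols.

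Counts were rounded and fitted with edgeR 4.0.16 (R 4.3.3) in 1 quasi-likelihood fit of all 9 libraries with group as the sole term, TMM scaling and filterByExpr, which kept 12337 of 18544 genes with a count. The 3 comparisons were each adjusted by Benjamini-Hochberg. Ratios were tested with two-sided exact permutation tests. On simulated data with 200 genes changed 2-fold, 65.5%, 64% and 65.5% were recovered with 9, 9 and 6 false calls in LLC blood against healthy blood, LLC tumor against LLC blood and LLC tumor against healthy blood, over 12212, 12203 and 12198 genes. The floor for a gene near 0 was 3 counts in each library of a group, which lay between 0.145 and 0.287 CPM and covers counting error only.

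The 10 genes and all lists were chosen with earlier results of these data known. Named besides the 10 were, from each of 6 pathway lists, at most the 3 called genes with the largest change in LLC tumor against LLC blood and the 2 in LLC blood against healthy blood, averaging 20 CPM or more, and the 2 genes most like each of the 10. Alternatives were other scaling, no filter, DESeq2 1.42.0, limma-voom (limma 3.58.1), fewer libraries, a replicate block, the reads of the CPM table and other thresholds. Samples with the same replicate number were not treated as pairs, since the labels tie them to nothing shared.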

Additional observations from a re-analysis of the deposited data

How the results depend on the processing

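Each of the 3 comparisons was refitted under 20 alternatives. The rises of Tnfaip3, Nfkbia, Nfkbiz and Nfkbie in LLC tumor against LLC blood, and of Rel in LLC blood, were called under all of them. In LLC blood against healthy blood the number of genes called, 3, became 5 with upper-quartile factors (4 lower), 9 with limma-voom (2 higher, 7 lower), 6 with the compared libraries alone (5 lower) and 1 when a log2 change of 1 or more was required (0 lower, by edgeR). Over all tested genes the share called, 23.6%, became 26.1%, 47.7%, 42.3% and 6.23% under these 4 settings. The number lower, 2, was 1 with every gene with a count and 1 at an adjusted p under 0.01, where 5.93% and 3.40% of all genes were lower in place of 9.61%. Leaving out single libraries gave 2 to 8 called and 1 to 7 lower, against 11.7% to 39.4% of all genes called and 3.67% to 22.4% lower. In LLC tumor against LLC blood a log2 change of 1 or more left 4 called, 0 of them lower, and against healthy blood also 4, with 0 lower (28.7% and 32.3% of all genes called). There, library totals alone gave 5 lower, against 40.1% of all genes. With library totals alone, Nfkb2 in LLC tumor against LLC blood turned to -0.19 and Rela in LLC tumor against healthy blood to -0.17, and the median of all genes moved to -0.23 and -0.17.

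Pairing of replicate numbers was not settled: correlations of deviations ran from -0.14 to 0.30. Between LLC blood and LLC tumor, where animals could be shared, they were -0.08, 0.12 and -0.14 for replicates 1 to 3. There, replicate 2 alone correlated best with its own number. Healthy blood libraries mostly correlated best with their own number in the LLC groups, although these are different mice. In LLC tumor against LLC blood, a replicate block narrowed the standard error of Nfkbia from 0.357 to 0.243 and of Tnfaip3 from 0.510 to 0.364. It widened those of Nfkb1 and Nfkb2 slightly. With the replicate block, 4 genes were called in LLC blood against healthy blood, where Relb (-0.39, edgeR adjusted p 0.0464) joined. In each tumor comparison 7 were called, as without it. Of all tested genes, 22.6% were called with the block in LLC blood against healthy blood. The shares were 60.4% in LLC tumor against LLC blood and 65.6% in LLC tumor against healthy blood. The Relb difference in LLC blood against healthy blood, not called in the reported fit, was called in 8 of 20 alternatives, and that of Nfkb2 in 3.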
